A study of Mus musculus with 14 samples.

Results

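The comparison described here sets marrow cells of mice bearing an instigating tumour (Instigator, n = 5) against those of mice bearing a non-instigating tumour of matched size (Non-instigator, n = 5). The 10 arrays were chosen by their sample titles, out of 14 arrays in all. In every group the RNA came from bone marrow cells sorted by flow cytometry for the surface antigen Sca1 and against the stem cell factor receptor cKit. Each RNA was hybridised to 1 Affymetrix mouse array. The instigating tumour was grown from BPLER, a line of transformed human breast epithelial cells, and the non-instigating tumour from PC3, a human prostate carcinoma line. Each tumour group is 1 cell line, so the instigating property, the tissue of origin and the line itself cannot be told apart. The other 4 arrays come from mice that received Matrigel, a basement membrane extract without tumour cells, and they serve below as context. Host strain, sex and age are not stated in the labels. Whether each array stands for its own mouse is not stated either, so the p-values measure a spread between arrays that may be technical.

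In systemic instigation, a growing tumour promotes the outgrowth of otherwise indolent tumour cells elsewhere in the same host, and marrow-derived cells recruited to those sites are one known carrier of the signal. Granulin, a secreted growth factor of myeloid cells, is the gene the study of these marrow cells is known for. Sca1 is carried by stem cells and also by many lymphocytes and activated myeloid cells, so a Sca1-positive, cKit-negative gate can hold several mature and immature lineages. Ptprc, which encodes the pan-leukocyte antigen CD45, lay between 11.09 and 11.91 on the log2 intensity scale on the 10 tumour arrays, brighter than 96.9% of genes. Kit, whose product was selected against, lay between 6.82 and 7.97, close to the middle of all genes. Ly6a, which encodes Sca1, was not analysed here because no probe set is named for it alone.

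2 arrays need to be named before the results. On Instigator 4, signal from the 5′ end of the beta-actin control transcript lay -3.41 (log2) from that of the 3′ end, where the other 13 arrays lay at -0.81 to -0.51. For Gapdh the same array lay at -4.03 and the others at -1.16 to -0.73. Among the 10 tumour arrays, the first principal component held 47.5% of the variance, with Instigator 4 at 71.3 and the others between -15.3 and 1.9. The description of Instigator 5 names PC3, while its title and source name the instigating tumour. It was kept as Instigator, and values without it or with it counted as Non-instigator are given where they matter. Without Instigator 4, the first component (39.5% of the variance) did not separate the tumour groups. Instigator 3 (-26.5), Non-instigator 1 (-20.2) and Instigator 1 (-14.8) lay at one end, and Non-instigator 4 (22.5) and Non-instigator 5 (26.2) at the other. The median absolute log2 difference between 2 arrays, leaving out Instigator 4, had a median of 0.145 within Instigator, 0.136 within Non-instigator and 0.14 between the groups.

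At matched tumour size, no gene passed an adjusted p of 0.05. The differences with the smallest p were modest. Polr3f, the NK cell receptor gene S1pr5 and the secretion GTPase gene Rab27b were lower with the instigating tumour, by 0.50, 0.62 and 0.81 on the log2 scale. The lysosomal adaptor Lamtor1, the cytokine Lif and the Fc receptor gene Fcgr1 were higher, by 0.40, 0.31 and 0.70. By limma, 0 of 22626 probe sets passed an adjusted p of 0.05 (0%), and the smallest adjusted p was 0.813. Over the alternatives run, that smallest adjusted p ranged from 0.25 without Instigator 2 to 0.983 without Non-instigator 5, and every alternative called 0.

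An unadjusted p under 0.05 was reached by 1268 probe sets (5.6%), of which 507 (2.24%) were higher and 761 (3.36%) lower in Instigator. That split depends on the scaling, since it was 680 to 667 after quantile normalization, and 817 to 666 with each array centred on its median. For 271 probe sets (1.2%) the groups did not overlap, with 170 higher (0.751%) and 101 lower (0.446%). Taking each gene as its brightest probe set, 299 of 12393 genes were higher at an unadjusted p under 0.05 (2.41%) and 362 lower (2.92%). The groups did not overlap for 88 genes that were higher (0.71%) and 54 that were lower (0.436%). The difference was above 0 for 58.2% of genes and below 0 for 41.8%, and its median over all genes was 0.03, with a median SE of 0.12. Differences over 1 on the log2 scale were seen in 0 genes in the higher direction (0%) and 7 in the lower (0.0565%). The lower count was 1 without Instigator 4, 14 without Instigator 5 and 19 without Non-instigator 1. Without Instigator 4 there were 255 higher (2.06%) and 291 lower (2.35%) genes at an unadjusted p under 0.05. Of these, 144 and 184 were also among the 299 and 362 found with all arrays.

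**Figure D1:**
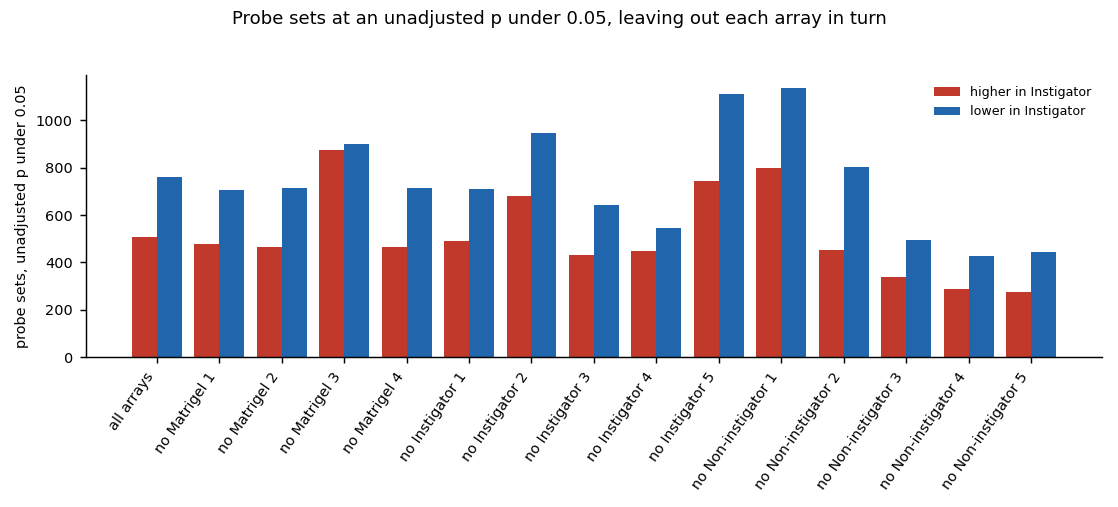
The bars give the number of probe sets, of 22626, at an unadjusted limma p under 0.05 that were higher (red) or lower (blue) in Instigator, with all arrays and with each of the 14 arrays left out in turn. The higher count was 507 with all arrays, 876 without Matrigel 3, 800 without Non-instigator 1, 337 without Non-instigator 3, 287 without Non-instigator 4 and 274 without Non-instigator 5, and the lower count ran from 427 to 1136.

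Several of the counts moved by more than 1.5 times when 1 array was left out. The higher count was 876 without Matrigel 3, which enters only through the shared estimate of the spread, and 800 without Non-instigator 1. It was 337 without Non-instigator 3, 287 without Non-instigator 4 and 274 without Non-instigator 5. The lower count was 495, 427 and 443 without the same 3 Non-instigator arrays. Counted by gene, the higher count ran from 157 without Non-instigator 5 to 499 without Matrigel 3, and the lower from 207 without Non-instigator 5 to 577 without Non-instigator 1. Counting Instigator 5 as Non-instigator gave 857 higher (3.79%) and 1269 lower (5.61%), with 0 called (smallest limma adjusted p 0.481). Of the 88 higher and 54 lower genes without overlap, 14 and 17 also had no overlap with Instigator 5 counted as Non-instigator. A gene can stay separate after that move only if Instigator 5 was the Instigator array nearest to the Non-instigator arrays. Low counts are thus built into the move and say nothing about the label of that array.

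The gene with the smallest p was Polr3f, which encodes a subunit of RNA polymerase III, the enzyme that transcribes transfer RNA genes. Its log2 intensity was 7.06, 7.26, 7.05, 7.06 and 6.74 on Instigator 1 to 5 and 7.66, 7.56, 7.52, 7.44 and 7.46 on Non-instigator 1 to 5. All Instigator arrays lay below all Non-instigator arrays, and the Matrigel arrays lay at 7.44 to 7.81. The difference was -0.50 (SE 0.10, 95% confidence interval -0.71 to -0.28, 1.41-fold lower, limma adjusted p = 0.813). It was -0.29 with Instigator 5, the lowest array, counted as Non-instigator, and the dimmer Polr3f probe set differed by -0.07.

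S1pr5 encodes the sphingosine 1-phosphate receptor through which NK cells leave the marrow. It lay at 6.84, 6.68, 6.43, 6.48 and 6.81 on Instigator 1 to 5, and at 7.19, 6.85, 7.29, 7.56 and 7.45 on Non-instigator 1 to 5. The groups did not overlap, although Non-instigator 2 lay at 6.85 against the highest Instigator value of 6.84. The difference was -0.62 (SE 0.14, 95% confidence interval -0.91 to -0.33, limma adjusted p = 0.813) and stayed between -0.73 and -0.55 over all alternatives run. The Matrigel arrays lay between the tumour groups in mean, at 6.60 to 7.09.

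Rab27b, a small GTPase that docks secretory granules and exosome-bearing vesicles, lay at 7.40, 7.42, 6.83, 7.44 and 7.46 on Instigator 1 to 5. On Non-instigator 1 to 5 it lay at 7.56, 8.45, 8.26, 8.07 and 8.25. Non-instigator 1 was thus close to the Instigator arrays, and 4 of 5 Non-instigator arrays were far above them. The difference was -0.81 (SE 0.20, 95% confidence interval -1.23 to -0.39, limma adjusted p = 0.813), while the dimmer probe set of the gene differed by -0.06. Serpinb9b, of the serpin family of granzyme inhibitors, had the largest difference among the 10 lower genes with the smallest p. It had group means of 8.76 ± 0.36 (SD, n = 5) for Instigator and 9.82 ± 0.57 (SD, n = 5) for Non-instigator, a difference of -1.06 (SE 0.27). Its groups overlapped, since Instigator 2 at 9.22 lay above Non-instigator 1 at 9.10.

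2 more of these 10 genes belong to cytotoxic lymphocytes and mast cells. Sh2d1a, the adaptor of SLAM family receptors in T and NK cells, averaged 8.61 ± 0.48 (SD, n = 5) and 9.42 ± 0.35 (SD, n = 5) in Instigator and Non-instigator arrays, with overlap (difference -0.81, SE 0.22). Cma1, the mast cell chymase gene, lay at 6.23 to 7.07 in Instigator and 7.21 to 8.08 in Non-instigator arrays, without overlap (difference -0.69, SE 0.19). The other members of the basophil and mast cell list did not share that size of difference, and the list had a median of 0.05 over 9 genes. Zyg11b, a substrate receptor of a cullin ubiquitin ligase, differed by -0.33 (SE 0.08) without overlap. Rida, a deaminase of reactive metabolic intermediates, differed by -0.46 (SE 0.12) without overlap. Wrn, the RecQ helicase mutated in Werner syndrome, differed by -0.31 (SE 0.08) without overlap, but its other 2 probe sets differed by 0.03 and -0.02. The remaining gene was Gm17546 (-0.54, SE 0.15). Limma's adjusted p was 0.813 for each.

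Among the genes that were higher, Lamtor1 had the smallest p. It encodes the anchor of the Ragulator complex, which recruits the growth regulator mTORC1 to the lysosome surface. Its log2 intensity was 12.51, 12.33, 12.44, 12.20 and 12.28 on Instigator 1 to 5, and 12.07, 12.08, 11.84, 11.73 and 12.01 on Non-instigator 1 to 5. The groups did not overlap, and the Matrigel arrays (11.92 to 12.18) lay below all Instigator arrays. The difference was 0.40 (SE 0.09, 95% confidence interval 0.20 to 0.60, limma adjusted p = 0.813), while the other 2 probe sets of Lamtor1 differed by 0.13 and -0.10.

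Lif, a cytokine of the interleukin 6 family, was dim, at 5.89, 5.89, 5.64, 6.02 and 5.87 on Instigator 1 to 5 and 5.53, 5.59, 5.56, 5.58 and 5.50 on Non-instigator 1 to 5. The groups did not overlap (difference 0.31, SE 0.08), but the dimmer Lif probe set differed by -0.06. Dnmt1, the maintenance DNA methyltransferase, lay at 11.93, 11.70, 12.04, 12.14 and 11.86 on Instigator 1 to 5. On Non-instigator 1 to 5 it lay at 11.68, 11.60, 11.47, 11.45 and 11.53, the highest of them just below the lowest Instigator array. Its difference of 0.39 (SE 0.10) comes from an x_at probe set, a suffix that marks sets whose probes can match further transcripts, and the mean of its probe sets differed by 0.31.

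2 receptors of macrophages and monocytes were among the 10. Fcgr1, the high-affinity receptor for IgG, lay at 7.56, 7.42, 7.75, 8.26 and 7.27 on Instigator 1 to 5. On Non-instigator 1 to 5 it lay at 6.78, 7.05, 6.98, 6.73 and 7.23, so that the groups were separate by a narrow margin at Instigator 5. The difference was 0.70 (SE 0.19, 95% confidence interval 0.28 to 1.11, 1.62-fold, limma adjusted p = 0.813) and 0.55 without Instigator 4, the highest array. The Matrigel arrays spanned both groups, at 6.96 to 7.78. Siglec1, the sialic acid-binding receptor of tissue macrophages, lay at 5.39 to 5.64 in Instigator and 5.09 to 5.33 in Non-instigator arrays (difference 0.28, SE 0.08). With the mean of its 3 probe sets, Siglec1 differed by 0.10.

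The other higher genes of this rank were Cdkl2, a cyclin-dependent kinase-like kinase (0.39, SE 0.11), and Dnajc10, a disulfide reductase of the endoplasmic reticulum (0.41, SE 0.12). The other 2 Dnajc10 probe sets differed by 0.14 and -0.07. Dync1i1, a dynein intermediate chain, was dim, at 4.09 to 4.38 in Instigator and 3.78 to 4.00 in Non-instigator arrays. It differed by 0.28 (SE 0.08) and by 0.16 with Instigator 5 counted as Non-instigator. Hr, a nuclear receptor corepressor, differed by 0.25 (SE 0.07) and by 0.17 with that array moved, and its dimmer probe set differed by 0.03. None of these 4 overlapped between the groups. Sh2b2, an adaptor of receptor tyrosine kinases, differed by 0.60 (SE 0.17) with overlap, and Instigator 4 at 8.50 stood above 7.49 to 7.76 on the other Instigator arrays. The dimmer Sh2b2 probe set differed by 0.03.

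**Figure D2:**
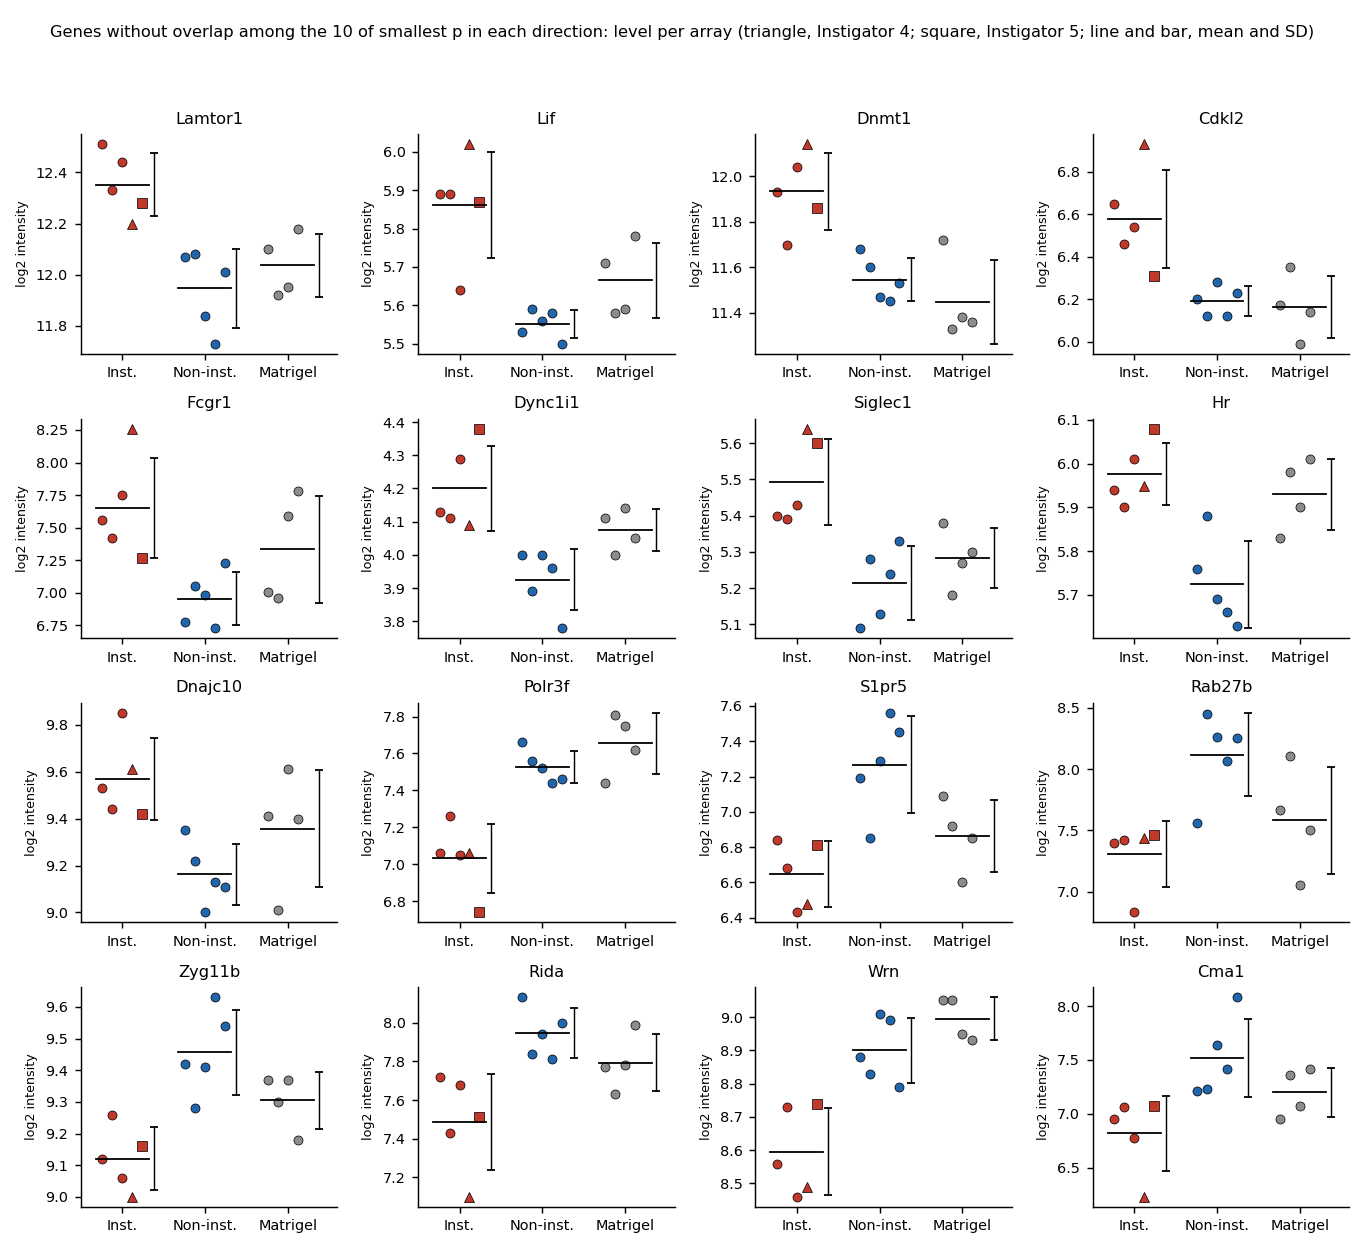
Each panel shows the log2 intensity of 1 gene on the 5 Instigator (red), 5 Non-instigator (blue) and 4 Matrigel (grey) arrays, with the mean as a line and the SD as a bar, a triangle for Instigator 4 and a square for Instigator 5. The 16 genes are those without overlap between the tumour groups among the 10 higher and 10 lower genes with the smallest p, first the 9 higher and then the 7 lower, and the gap is as narrow as 6.84 against 6.85 for S1pr5.

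In the fit without Instigator 4, the 5 genes with the smallest p in each direction again included Lamtor1, Dync1i1, Polr3f, S1pr5 and Rab27b. The others that were higher were Eral1, a chaperone of mitochondrial ribosomal RNA (0.30 without that array, 0.44 with it, and 0.28 with it when its 5 probe sets were averaged), Rad9b, of the checkpoint clamp family (0.29 and 0.24), and the zinc finger gene Zfp772 (0.29 and 0.22). With Instigator 5 counted as Non-instigator, Rad9b differed by 0.13 and Zfp772 by 0.10. Zfp772 was dim, at a mean of 4.18 over the 14 arrays. Dnajb4, a heat shock protein co-chaperone, was lower by -0.49 without Instigator 4 and -0.38 with it, while its dimmer probe set differed by 0.03. The immunoglobulin kappa gene Igk-V21 was lower by -0.72 without Instigator 4 and by -1.13 with it, as that array lay at 8.94 and the other Instigator arrays at 10.70 to 11.19. The smallest limma adjusted p of this fit was 0.965.

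Gene lists of 16 cell types and 14 processes were then described by how many measured members lay higher or lower, beside 58.2% of all genes above 0. In these bulk samples, fewer cells of a type and less RNA per cell cannot be told apart. Lymphoid lists lay lower with the instigating tumour, led by NK, mature B, T and B progenitor genes. The lists that lay slightly higher, at medians of 0.18 to 0.12, were led by neutrophil primary granules. After these came type I interferon, granulin axis, DNA replication, amino acid stress and lysosome genes. In the amino acid stress list 12 of 20 genes were higher, a share close to that of all genes. No member of any list reached an adjusted p under 0.05 by limma.

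**Figure D3:**
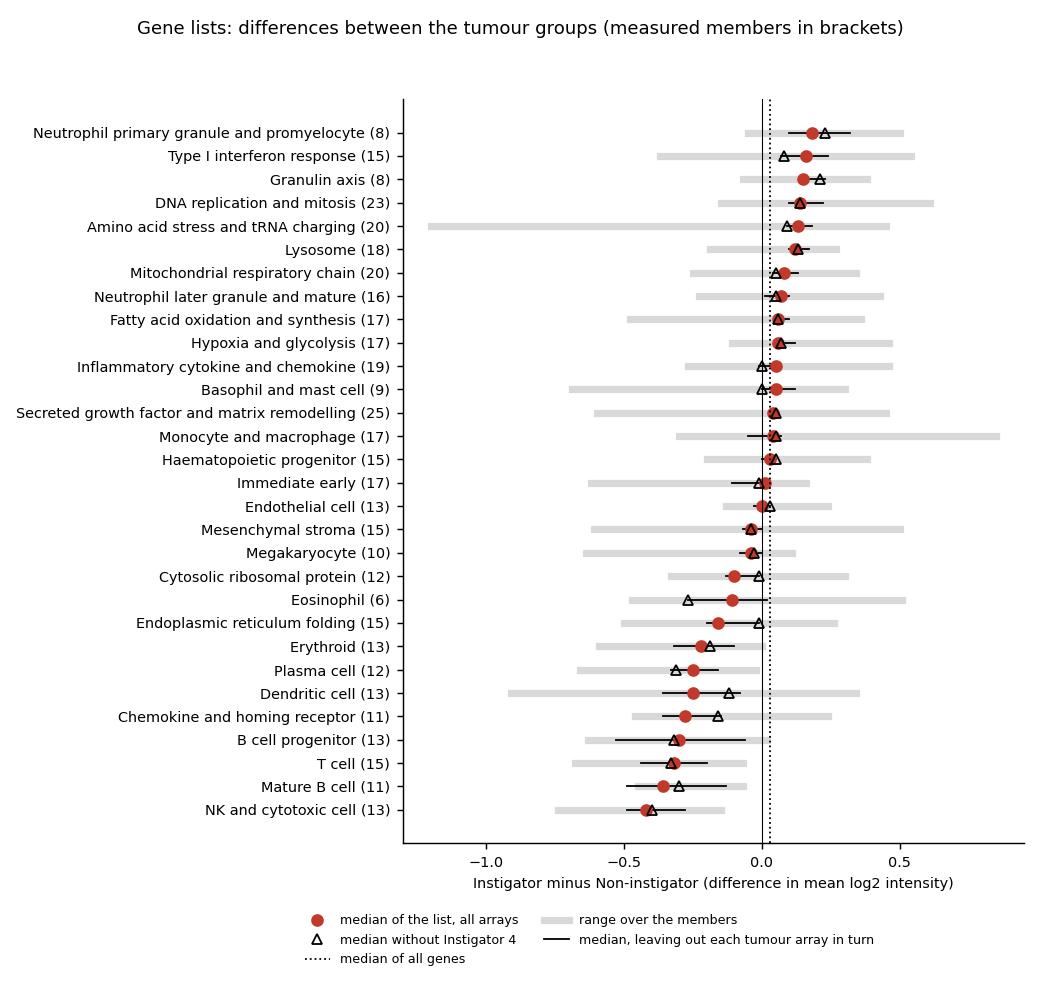
For each list, the red point is the median difference of its measured members (number in brackets) in mean log2 intensity, Instigator minus Non-instigator, the grey band their range, the triangle the median without Instigator 4, and the black line the span of the median with each tumour array left out. NK and cytotoxic genes lie lowest at -0.42, the primary granule list highest at 0.18, and the dotted line marks the median of all genes, 0.03.

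NK and cytotoxic lymphocytes kill virus-infected and tumour cells through perforin and granzymes. All 13 measured genes of 16 listed were lower in Instigator, with a median of -0.42 and a range of -0.74 to -0.15. Of these, 7 were lower at an unadjusted p under 0.05, against 2.92% of all genes. That count was 4 without Non-instigator 5, and 5 to 9 with any other array left out. Over all 12393 genes the lower count was 362 with all arrays, 207 without Non-instigator 5 and up to 577 with another array left out. The activating receptor Klrk1 (NKG2D) was at 8.36 ± 0.56 (SD, n = 5) with the instigating and 9.10 ± 0.64 (SD, n = 5) with the non-instigating tumour (difference -0.74, SE 0.36). Ncr1 (NKp46), a receptor that defines NK cells, lay at 9.84, 10.44, 9.51, 9.02 and 9.85 on Instigator 1 to 5. On Non-instigator 1 to 5 it lay at 10.08, 10.70, 10.28, 9.85 and 10.73, so that the groups overlapped (difference -0.59, SE 0.23).

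The interleukin 2 receptor beta chain Il2rb differed by -0.59 (SE 0.20) at the brighter and -0.70 (SE 0.28) at the dimmer of its probe sets. Gzma, which encodes granzyme A and is singled out after its values were seen, had no overlap. It lay at 12.11 to 12.40 in Instigator and 12.42 to 12.72 in Non-instigator arrays (difference -0.27, SE 0.09). The list mean per array was lowest on Instigator 3 (8.79), and the Instigator range of 8.79 to 9.57 overlapped the Non-instigator range of 9.36 to 9.96. The median stayed between -0.49 and -0.28 with each tumour array left out, the latter without Instigator 3. It was -0.40 without Instigator 4 and -0.47 with Instigator 5 counted as Non-instigator.

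T cell genes were all lower as well, 15 of 15 measured, with a median of -0.32, 2 of them at an unadjusted p under 0.05, against 2.92% of all genes. That count was 4 without Instigator 4, 9 without Non-instigator 1 and 7 with Instigator 5 counted as Non-instigator. It was also 5 without Instigator 2 or Instigator 5, 4 without Non-instigator 3, and 1 without Instigator 1, Instigator 3, Non-instigator 4 or Non-instigator 5. Over all 12393 genes the lower count was 362 with all arrays, 291 without Instigator 4 and 577 without Non-instigator 1. With Instigator 5 counted as Non-instigator it was 542, and without Non-instigator 5 it was 207. The signalling chain of the T cell receptor Cd247 lay at 7.25, 7.50, 6.57, 7.13 and 7.44 on Instigator 1 to 5 and at 7.37, 7.69, 7.56, 8.02 and 7.83 on Non-instigator 1 to 5 (difference -0.51, SE 0.16). The groups overlapped at 1 Non-instigator array. The dimmer Cd247 probe sets differed by -0.83, -0.26 and -0.06. The lymph node homing receptor Ccr7 differed by -0.68 (SE 0.29). The costimulatory receptor Cd28 differed by -0.61 (SE 0.30), and by -0.37 without Instigator 3, while its dimmer probe set differed by -1.02 (SE 0.33). The coreceptor chain Cd8b1 differed by -0.56 (SE 0.32), and by -0.24 without Non-instigator 4, which lay at 8.48 against 6.34 to 7.76 on the other Non-instigator arrays. The list mean was lowest on Instigator 3 (7.30) and Non-instigator 1 (7.54) and highest on Non-instigator 4 (8.72) and Non-instigator 5 (8.57). The median was -0.20 without Non-instigator 5.

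**Figure D4:**
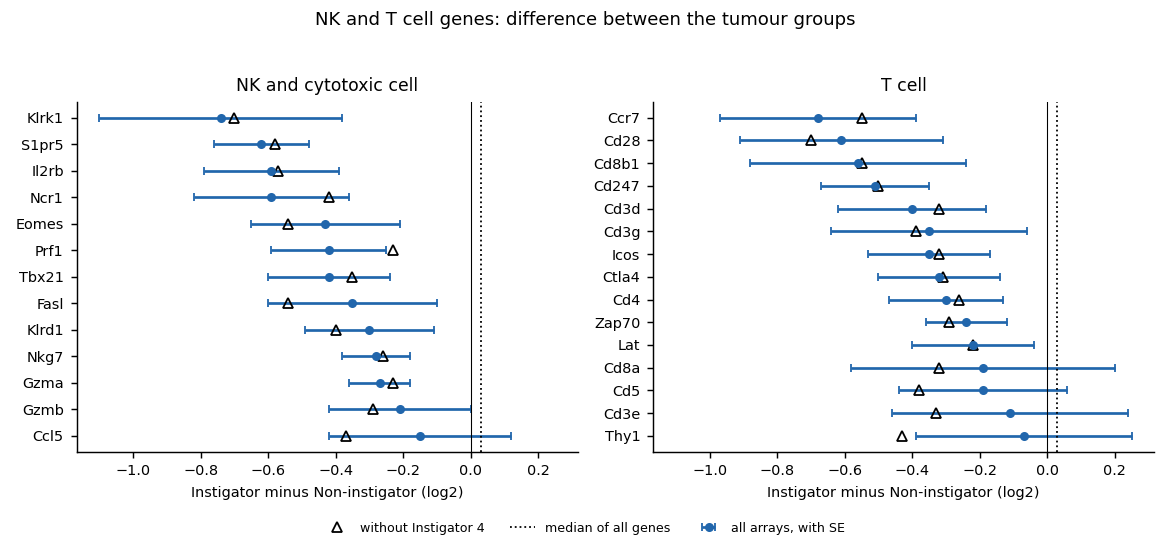
The points give the difference in mean log2 intensity (Instigator minus Non-instigator, all arrays) of each measured NK and cytotoxic gene (left, 13) and T cell gene (right, 15), with bars of 1 SE and triangles for the difference without Instigator 4. All points lie below 0, from -0.74 to -0.15 on the left and from -0.68 to -0.07 on the right, and the dotted line marks the median of all genes.

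B lineage genes lay lower in both stages. Of 13 B cell progenitor genes, 12 were lower (median -0.30), and all 11 measured mature B cell genes were lower (median -0.36). Igll1, part of the surrogate light chain of pre-B cells, had means of 9.29 ± 0.34 (SD, n = 5) and 9.91 ± 0.44 (SD, n = 5) in the Instigator and Non-instigator groups (difference -0.63, SE 0.22). The dimmer Igll1 probe set differed by -0.31 (SE 0.22). The interleukin 7 receptor Il7r differed by -0.58 (SE 0.32), and by -0.32 without Instigator 3, while its dimmer probe set differed by -0.88 (SE 0.31). The recombinase Rag1 differed by -0.50 (SE 0.31), and by -0.21 without Instigator 3. Lef1, a transcription factor singled out after its values were seen, was the progenitor gene without overlap, at 5.20 to 5.36 in Instigator and 5.39 to 5.52 in Non-instigator arrays (difference -0.15, SE 0.12).

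Of the mature B cell genes, the antigen receptor component Cd79b differed by -0.45 (SE 0.26), and by -0.25 without Non-instigator 5. The complement receptor Cr2 differed by -0.45 (SE 0.28), and by -0.21 without Non-instigator 5. The inhibitory receptor Cd72 differed by -0.38 (SE 0.21), and by -0.23 without Instigator 3. Single arrays weighed on both lists. The progenitor mean was 7.39 on Instigator 3 and 8.12 to 8.40 on the other Instigator arrays, and 7.81 on Non-instigator 1 and 8.33 to 8.72 on the other Non-instigator arrays. The progenitor median was -0.06 without Instigator 3, -0.15 without Non-instigator 5, -0.17 without Non-instigator 2 and -0.53 without Non-instigator 1. The mature B cell median was -0.13 without Instigator 3 and -0.17 without Non-instigator 5.

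All 12 plasma cell genes, of the antibody-secreting end of that lineage, lay lower, at a median of -0.25 (-0.16 without Non-instigator 5). Tnfrsf17, the survival receptor BCMA, lay at 6.82, 6.87, 6.95, 6.89 and 7.66 on Instigator 1 to 5 and at 6.76, 7.70, 8.15, 7.87 and 8.02 on Non-instigator 1 to 5. Instigator 5 lay with the higher Non-instigator arrays and Non-instigator 1 with the lower Instigator arrays (difference -0.66, SE 0.24). The transcription factor Irf4 differed by -0.61 (SE 0.35), and by -0.94 without Non-instigator 1, while its dimmer probe set differed by -0.33 (SE 0.24). Syndecan 1 (Sdc1) differed by -0.59 (SE 0.34), by -0.94 without Non-instigator 1 and by -0.36 over the mean of its 4 probe sets.

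**Figure D5:**
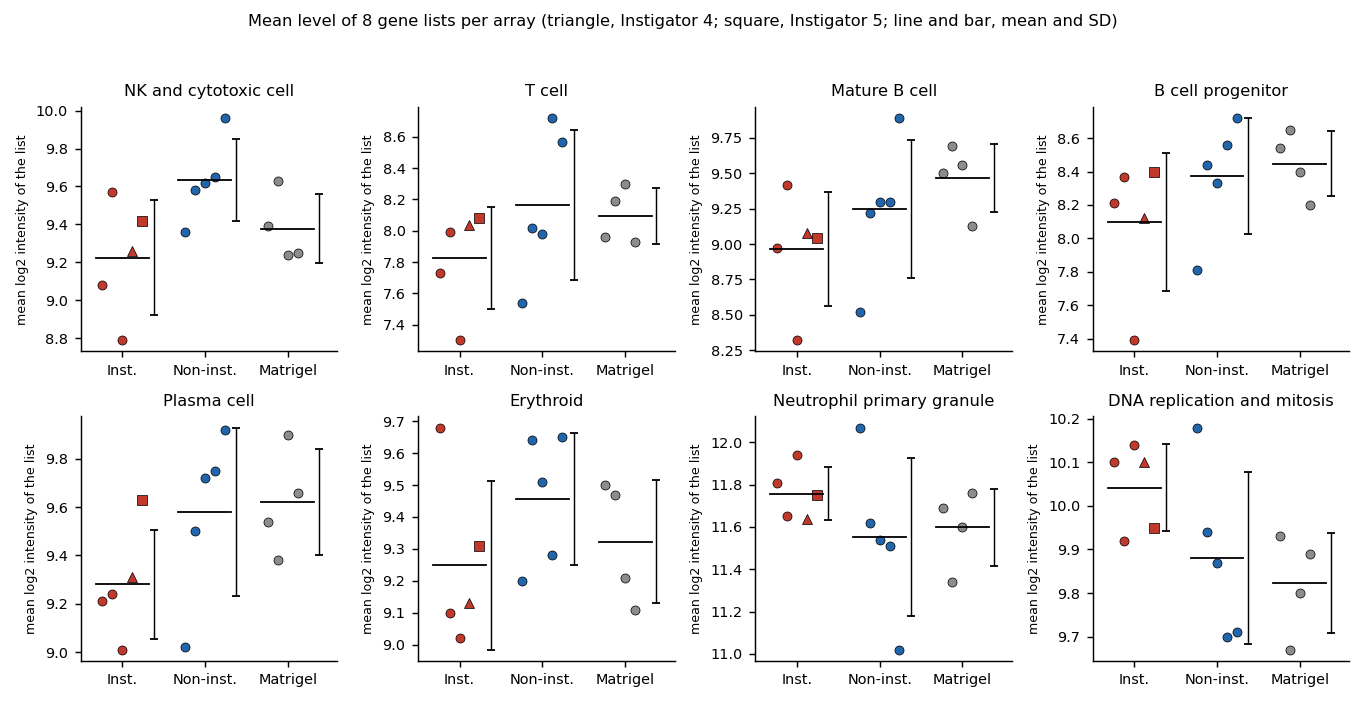
Each panel shows the mean log2 intensity of the measured genes of 1 list on every array, with group mean, SD and symbols as in the plot of single genes. Instigator 3 and Non-instigator 1 are the lowest of their groups for the T, B and plasma cell lists, and the ranges of the tumour groups overlap in all 8 panels.

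Of 13 dendritic cell genes, 10 were lower, with a median of -0.25. That median was -0.12 without Instigator 4, -0.14 without Instigator 3, -0.08 without Non-instigator 5 and -0.05 when a gene's probe sets were averaged. The C-type lectin Cd209d differed by -0.91 (SE 0.33), with Instigator arrays at 6.50 to 8.22 and Non-instigator arrays at 7.70 to 9.40. Its relative Cd209a differed by -0.60 (SE 0.32), and by -0.39 without Non-instigator 2. The transcription factor Spib, shared by plasmacytoid dendritic and B cells, differed by -0.46 (SE 0.26), and by -0.29 without Instigator 4.

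Of 13 erythroid genes 12 lay lower, and the median of -0.22 was -0.10 without Instigator 3 and -0.14 without Non-instigator 5. Alas2, the first enzyme of haem synthesis in red cells, differed by -0.59 (SE 0.28), and by -0.33 without Instigator 4. The Rh-associated glycoprotein Rhag differed by -0.50 (SE 0.20). Carbonic anhydrase 2 (Car2) differed by -0.36 (SE 0.16), and by -0.24 without Instigator 4.

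The chemokine and homing receptor list, whose members are largely lymphocyte receptors, had 8 of 11 genes lower and a median of -0.28. The median was -0.16 without Instigator 4, -0.15 without Non-instigator 5 and -0.18 when a gene's probe sets were averaged. The integrin chain Itga4 differed by -0.46 (SE 0.23), by -0.25 without Instigator 4 and by -0.21 over the mean of its 3 probe sets. Itgal, the alpha chain of the integrin LFA-1 and singled out after its values were seen, had no overlap (difference -0.18, SE 0.09).

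The contents of neutrophil primary granules are made at the promyelocyte stage. Of 8 measured genes of that stage, 7 were higher in Instigator (median 0.18), none at an unadjusted p under 0.05, though 5 were so without Non-instigator 1. Without that array, 474 of all 12393 genes were higher at that p, against 299 with all arrays. The membrane protein gene Ms4a3 differed by 0.50 (SE 0.24), and by 0.30 without Non-instigator 5. Proteinase 3 (Prtn3) differed by 0.38 (SE 0.23), and by 0.17 without Non-instigator 5. Cathepsin G (Ctsg) differed by 0.32 (SE 0.19) and myeloperoxidase (Mpo) by 0.20 (SE 0.11), and without Non-instigator 5 these were 0.15 and 0.11. The list mean was 11.02 on Non-instigator 5 and 12.07 on Non-instigator 1, with all Instigator arrays between them at 11.64 to 11.94. The median was 0.10 without Non-instigator 5 and 0.32 without Non-instigator 1.

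The lymphoid and granule lists thus ran in opposite directions across single Non-instigator arrays, with Non-instigator 1 low in T and B lineage genes and highest in granule genes, and Non-instigator 5 high in those genes and lowest in granule genes. The part of this spread in the group differences was not tested. Genes of later neutrophil stages had a median of 0.07 over 16 genes, with 12 higher, and the median was 0.01 without Instigator 1 and 0.03 without Non-instigator 2 or Non-instigator 5.

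Of 23 DNA replication and mitosis genes, 20 were higher, with a median of 0.14 (0.22 without Non-instigator 1), and 3 were higher at an unadjusted p under 0.05, against 2.41% of all genes. Mcm2, a subunit of the replicative helicase, lay at 9.79, 9.53, 9.76, 10.68 and 9.49 on Instigator 1 to 5. The Non-instigator arrays lay at 8.97 to 9.23 apart from Non-instigator 1, which at 9.86 lay above 4 of 5 Instigator arrays. The Mcm2 difference was 0.61 (SE 0.21), and 0.40 without Instigator 4, while the dimmer probe set differed by 0.15. For Cdt1, which licenses replication origins, the difference was 0.42 (SE 0.17), and for the replicative polymerase gene Pole it was 0.37 (SE 0.14). Without Instigator 4, 21 of 23 genes were higher with the same median of 0.14, but the count at an unadjusted p under 0.05 was 1. It was also 1 without Non-instigator 4, 2 without Instigator 3 or Non-instigator 5, 5 without Instigator 2 or Instigator 5, and 8 without Non-instigator 1. The higher count over all 12393 genes was 299 with all arrays and 255 without Instigator 4. It was 162 without Non-instigator 4 and 474 without Non-instigator 1.

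Lysosomal genes were higher in 16 of 18 cases, with a median of 0.12 (0.07 when a gene's probe sets were averaged). The membrane protein Lamp2 differed by 0.19 (SE 0.08), and beta-glucuronidase (Gusb) by 0.27 (SE 0.16). The dimmer Gusb probe set differed by -0.09, and the mean of both by 0.09. Npc2, a lysosomal cholesterol carrier singled out after its values were seen, had no overlap, at 11.24 to 11.41 in Instigator and 11.01 to 11.22 in Non-instigator arrays (difference 0.16, SE 0.09). Averaged over its probe sets, Npc2 differed by -0.04.

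Granulin (Grn) lay at 10.45, 10.69, 10.67, 10.69 and 10.73 on Instigator 1 to 5, and at 10.28, 10.30, 10.44, 10.37 and 10.64 on Non-instigator 1 to 5. The groups overlapped only through Instigator 1 and Non-instigator 5, and the Matrigel arrays lay at 10.19 to 10.66. The difference was 0.24 (SE 0.10, 95% confidence interval 0.03 to 0.45, limma adjusted p = 0.813). Its other 2 probe sets, both of the x_at kind, differed by 0.38 (SE 0.13) and 0.51 (SE 0.13) without overlap. At the brightest set the difference was 0.16 with Instigator 5 counted as Non-instigator.

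The other genes of the granulin axis did not all go the same way. The granulin receptor sortilin (Sort1) differed by 0.34 (SE 0.20), and by 0.16 without Instigator 4. Its dimmer probe sets differed by 0.34 (SE 0.11) and 0.36 (SE 0.11), the first without overlap. Without Instigator 4 these were 0.35 and 0.30. Prosaposin (Psap), which carries granulin to lysosomes, differed by 0.16 (SE 0.09) at its brighter probe set and by -0.21 (SE 0.25) at its dimmer one. Of the 8 genes, 6 were higher, with a median of 0.15 (0.23 without Non-instigator 1).

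Monocyte and macrophage genes lay in both directions, with 10 of 17 higher and a median of 0.04, but 3 were higher at an unadjusted p under 0.05, against 2.41% of all genes. The median was -0.05 without Non-instigator 1. These 3 were Fcgr1, the colony-stimulating factor receptor Csf1r and the monocyte transcription factor Klf4. Csf1r lay at 10.53, 10.61, 10.74, 12.27 and 10.27 on Instigator 1 to 5, and the Non-instigator arrays spanned 9.63 to 10.56. Instigator 4 stood far above the rest, and the difference was 0.85 (SE 0.30) with it and 0.50 without it. The dimmer Csf1r probe sets differed by 0.77 (SE 0.31) and 0.14 (SE 0.14), and the mean of its 3 probe sets by 0.58. Klf4 averaged 9.37 ± 0.34 (SD, n = 5) and 8.85 ± 0.30 (SD, n = 5), with a difference of 0.52 (SE 0.17) and of 0.55 without Instigator 4. The macrophage antigen Adgre1 differed by 0.47 (SE 0.27), and by 0.23 without Instigator 4. No member was lower at an unadjusted p under 0.05 with all arrays, but 2 were without Instigator 4, against 2.35% of all genes in that fit. These were the adhesion molecule gene Vcam1 (-0.54, against -0.30 with all arrays and -0.16 without Instigator 3) and the mannose receptor gene Mrc1 (-0.48, against -0.23 with all arrays and -0.10 without Non-instigator 4), both named after their values were seen.

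Of the remaining cell type lists, all but the eosinophil list had medians within 0.1 of that of all genes. Haematopoietic progenitor genes had a median of 0.03, with Cd34 at 0.38 (SE 0.21, and 0.21 without Non-instigator 5). Kit, the receptor the sort selected against, differed by 0.21 (SE 0.20), by 0.07 without Non-instigator 5 and by 0.36 without Non-instigator 1, and its dimmer probe set by 0.04. Megakaryocyte genes had a median of -0.04 and endothelial genes 0.00. Mesenchymal stroma genes had a median of -0.04 and held members in opposite directions, with the matrix protein gene Sparc at -0.61 (SE 0.19) and fibronectin (Fn1) at 0.50 (SE 0.19). The dimmer probe sets of these genes differed by -0.14 and 0.15. The 6 eosinophil genes had a lower median of -0.11, which was 0.02 without Instigator 5 and -0.27 without Instigator 4. The eotaxin receptor Ccr3, dim at a mean of 4.83 over the 14 arrays, differed by -0.47 (SE 0.14). The 4 measured sex-linked genes differed by -0.01 to 0.17. Over all arrays Xist averaged 11.96, Kdm5d 5.01, Uty 4.59 and Eif2s3y 3.87. The dimmer Xist probe sets differed by -0.38 (SE 0.29) and -0.01 (SE 0.30).

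Among process lists, the median of the 15 type I interferon genes was 0.16, and it was 0.08 without Instigator 4 and 0.07 without Non-instigator 1. The RNA sensor Ifih1 differed by 0.54 (SE 0.26), and by 0.23 without Instigator 4. Endoplasmic reticulum folding genes had a median of -0.16, and -0.01 without Instigator 4. The degradation adaptor Sel1l differed by -0.50 (SE 0.30, and -0.75 without Non-instigator 1) and the chaperone Hsp90b1 by -0.38 (SE 0.18, and -0.23 without Instigator 4). Cytosolic ribosomal protein genes had a median of -0.10, and -0.01 without Instigator 4.

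Inflammatory cytokine and chemokine genes had a median of 0.05 (-0.01 to 0.06 with each tumour array left out), with interleukin 18 (Il18) at 0.46 (SE 0.26) and at 0.22 once Instigator 4 was left out. Secreted growth factor and matrix remodelling genes had a median of 0.04, with thrombospondin 1 (Thbs1) at -0.60 (SE 0.21, with the dimmer probe set at -0.02) and Tgfb1 at 0.37 (SE 0.24). Immediate early genes had a median of 0.01 (-0.11 without Instigator 3), with the antiproliferative gene Btg2 at -0.62 (SE 0.23).

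The median was 0.06 for hypoxia and glycolysis genes, and 0.12 without Instigator 5. Egln3, an oxygen-sensing prolyl hydroxylase, lay at 7.31, 7.41, 7.56, 7.72 and 7.42 on Instigator 1 to 5 and at 7.30, 6.90, 7.08, 7.04 and 6.82 on Non-instigator 1 to 5. The groups did not overlap, though Non-instigator 1 came within reach of Instigator 1 (difference 0.46, SE 0.13). Lactate dehydrogenase A (Ldha) differed by 0.35 (SE 0.20), and by 0.23 without Instigator 4.

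Amino acid stress genes had a median of 0.13 (0.09 without Instigator 4), with 12 of 20 higher, against 58.2% of all genes. Fatty acid genes had a median of 0.06, with the desaturase Scd1 at -0.48 (SE 0.30, and -0.25 without Instigator 3). Respiratory chain genes had a median of 0.08, which ran from 0.04 without Non-instigator 5 to 0.13 without Non-instigator 1. Ddit4, an inhibitor of mTORC1 induced by stress, was lower by -1.20 (SE 0.46), with Instigator arrays at 8.65 to 11.14 and all Non-instigator arrays at 10.03 or above. The Ddit4 difference was -0.93 without Instigator 4, -1.55 without Instigator 5 and -1.58 with Instigator 5 counted as Non-instigator.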

How the data were processed

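Per the labels, marrow cells were sorted into Trizol, RNA was purified with Qiagen kits and amplified for biotin labelling with a NuGen Ovation system. The deposited values are linear intensity, for 22690 probe sets and 14 arrays, and the authors made them with RMA in affy under R 2.11.0, per the submitters' processing notes. These deposited intensity values were put on the log2 scale without further scaling. The median of an array lay between 119 and 145, and the number of arrays limits the precision.

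Control probe sets (64) were left out. The platform annotation gives 1 symbol to 20380 probe sets, several to 691 and none to 1555. Each gene is represented by the brightest, on average over the 14 arrays, of its probe sets with 1 symbol. Limma 3.58.1 under R 4.3.3 fitted all 14 arrays at once by group, with Benjamini-Hochberg adjustment of the p-values of 22626 probe sets. Counts from unadjusted p-values only describe. Confidence intervals are at 95%. The fit was tested on simulated data.

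The text names the genes ranked 1 to 10 by p in each direction, 5 per direction from the fit without Instigator 4, Grn, Kit, and up to 4 members per list by size. The groups compared and the lists (492 genes, 437 measured) were chosen with earlier results of these data known, so they are not independent support. Fits were repeated on the tumour arrays alone, after quantile normalization or median centring, on brighter probe sets only, with a robust intensity-dependent prior, with array weights, with replicate blocks, leaving out each array, with Instigator 5 moved, and averaging the probe sets of a gene. Figures used matplotlib 3.10.9 (Python 3.11.15).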

Additional observations from a re-analysis of the deposited data

Results flagged for a closer look

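Of 232 groups of 5 arrays checked for genes and list means, 17 held 1 array far from the others by Dixon's criterion at 0.71, where chance gives about 5%. Instigator 4 was that array in 10 of the 17. It lay at 8.50 for Sh2b2 (the others at 7.49 to 7.76), 8.80 for Eral1 (8.19 or below), 10.68 for Mcm2 (9.49 to 9.79) and 12.27 for Csf1r (10.27 to 10.74). It also lay at 8.37 for Adgre1 (7.11 to 7.27), 8.10 for Il18 (6.67 to 7.06), 8.62 for Ifih1 (6.85 to 7.22), and at 8.27 for Mrc1 (6.97 to 7.20). It was low for Igk-V21, at 8.94 (10.70 to 11.19), and for the cytosolic ribosomal protein list, at a mean of 11.97 (12.34 to 12.41). Instigator 3 was low for Rab27b at 6.83 (7.40 to 7.46), for Il7r at 8.89 (10.01 to 10.40) and for the B cell progenitor list at a mean of 7.39 (8.12 to 8.40). Non-instigator 1 was high for Gusb at 10.02 (9.38 to 9.55) and low for the secreted factor list at a mean of 6.20 (6.28 to 6.31). Instigator 1 was low for Grn at 10.45 (10.67 to 10.73). Instigator 5, whose description names the other tumour, was high for Tnfrsf17 at 7.66 (6.82 to 6.95).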

How the results depend on the processing

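Limma called 0 probe sets under all alternatives run. Counting Instigator 5 as Non-instigator gave 857 higher and 1269 lower probe sets at an unadjusted p under 0.05 and 195 lower without overlap, against 507, 761 and 101 as reported. Median centring gave 817 higher and 321 higher without overlap, and array weights 1370 higher and 1393 lower. The brighter probe sets, those with a mean at or above the median, gave 240 higher and 45 higher without overlap. These come from fewer probe sets tested, so they cannot be set directly against 507 and 170. With each array left out, the higher count ran from 274 to 876 and the lower count from 427 to 1136. With each tumour array left out, 253 to 508 probe sets were higher without overlap and 137 to 362 lower. A smaller group can only keep or gain such probe sets, so these counts could not fall below 170 and 101. Their rise is therefore not read as a dependence on single arrays. Of 1982 recomputed gene differences 2 reversed, Psap at -0.02 and Npc2 at -0.04, both with the mean of their probe sets. Most of these genes were chosen for a small p or a large difference in these same arrays. Few reversals are thus built in and say little about stability. Of 768 recomputed list medians, 7 left the spread of the arrays, in 5 lists. The replicate numbers of the titles were not used to pair the samples, as the labels name no pairing. Same-numbered Instigator and Non-instigator arrays had correlations of -0.09 to 0.25 in their deviations. Such values cannot settle whether same-numbered arrays were handled together. With the number as a replicate block, 497 probe sets were higher and 838 lower (455 and 621 also without Instigator 4). Apart from the counts bound by the number of arrays or probe sets, the cause of these shifts was not tested.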
